A study of Mus musculus with 2 samples.

Results

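The 10 microRNA (miRNA) genes Mir770, Mir673, Mir493, Mir337, Mir540, Mir665, Mir431, Mir433, Mir127 and Mir434 form the proximal part of the imprinted Dlk1-Dio3 locus on mouse chromosome 12. They were chosen by name, and all 10 were found among the 1973 miRNA genes of the deposited counts. Small RNA was sequenced from hearts of B6NCrl mouse embryos at day 15.5, untreated and with both sexes pooled, as 1 group of 2 biological replicates. Replicate 1 pooled 78 embryos and replicate 2 pooled 62. The spread between replicates is thus one between pools, and single embryos were not measured. Whole hearts were used, and in such bulk samples fewer cells of a type and less RNA per cell cannot be told apart. No second group exists, so the data answer how strongly each of these miRNAs was counted in the embryonic heart and how far the pools differed.

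In the mouse the Dlk1-Dio3 locus is expressed according to parental origin. The chromosome from the father expresses the protein genes Dlk1, Rtl1 and Dio3, and the chromosome from the mother expresses the long noncoding RNAs Meg3, Rian and Mirg together with snoRNAs and many miRNAs. Rtl1 is a retrotransposon-derived gene that is read from the opposite strand, and the maternal miRNAs that lie across from it are known in the mouse to guide cleavage of its paternal mRNA. A miRNA hairpin yields up to one mature strand from each arm, called 5p and 3p, and the seed near the 5′ end of a mature miRNA (its bases 2 to 8) largely sets its targets.

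By the GENCODE M21 annotation of GRCm38 (mm10), all 10 hairpins lie on the plus strand, in the order in which they are named above. Mir770 overlaps an annotated exon of Meg3, 22.7 kb from the start of that gene. Mir673, Mir493, Mir337, Mir540 and Mir665 follow between Meg3 and Rtl1 and overlap no annotated gene on their strand other than a miRNA. Mir431, Mir433, Mir127 and Mir434 lie opposite the coding exon of Rtl1. The hairpin of Mir127 spans chr12:109592846-109592915 and that of Mir431 chr12:109590447-109590537.

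RefSeq lists both mature arms for 10 of the 10 genes. The 8 arms opposite Rtl1 are shown first, with the seed in capitals, because each is complementary to the Rtl1 mRNA over its full length, as the antisense position requires. They are written 5′ to 3′ as RNA, from the plus strand of GRCm38.p6.
miR-431-5p: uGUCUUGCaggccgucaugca
miR-431-3p: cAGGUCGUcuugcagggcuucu
miR-433-5p: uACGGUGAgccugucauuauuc
miR-433-3p: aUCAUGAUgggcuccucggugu
miR-127-5p: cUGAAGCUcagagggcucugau
miR-127-3p: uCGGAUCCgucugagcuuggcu
miR-434-5p: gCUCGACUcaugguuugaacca
miR-434-3p: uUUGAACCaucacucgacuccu

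A search of the Rtl1 transcript found 1 full-length site for each of these 8 arms, all inside the coding sequence of 5232 bases. The sites of miR-434-3p and miR-434-5p come first, the more upstream one from coding base 818, and those of Mir127, Mir433 and Mir431 follow in that order, the last of them starting at coding base 4925. The sites of both arms of Mir127, the most abundant of the 10, are given as DNA in the sense of the Rtl1 mRNA, from the minus strand of chromosome 12.
Site of miR-127-3p, coding bases 2495 to 2516: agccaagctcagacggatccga
Site of miR-127-5p, coding bases 2529 to 2550: atcagagccctctgagcttcag

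None of the arms of the 6 genes outside Rtl1 had such a site. The arms of Mir337, the most abundant of these 6, and of Mir540 and Mir770, the 2 of them that differed between the pools, are shown in the same way.
miR-337-5p: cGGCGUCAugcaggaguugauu
miR-337-3p: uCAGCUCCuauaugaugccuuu
miR-540-5p: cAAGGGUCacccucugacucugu
miR-540-3p: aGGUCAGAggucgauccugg
miR-770-5p: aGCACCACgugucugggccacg
miR-770-3p: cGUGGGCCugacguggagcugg

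The 20 arms carry 20 different seeds, so the 10 genes are neighbours and not a seed family. Only 2 arms share their seed with another of the 1738 mature mouse miRNAs searched. They are miR-673-5p, with the seed of miR-6985-3p, and miR-540-3p, with that of miR-6915-5p. No hairpin of the 10 shares a stretch of 20 bases with another of 2202 annotated miRNA hairpins, and no arm occurs in a second hairpin. A read of a full mature sequence from these genes therefore matches no other annotated hairpin. Reads that match several places of the genome are in no gene count. In 2 of the 10 hairpins the arms resemble each other. Both arms of Mir431 contain GUCUUGCAGG, and both arms of Mir434 contain UUUGAACCA, runs of 10 and 9 bases, while the median of the longest shared run was 5 over the 10 genes and 4 over 677 mouse hairpins with 2 listed arms. Runs of at least 9 bases occurred in 1.33% of those 677 hairpins. The run in miR-431-5p begins at base 2 and covers its seed, whereas in miR-431-3p it begins at base 7. The run in miR-434-3p begins at base 1 and also covers its seed, whereas in miR-434-5p it begins at base 14. The files count whole hairpins, so the arms could not be told apart.

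Replicate 1 held 3439539 and replicate 2 held 5833156 counts on the strand of a miRNA gene, 48.7% and 49.7% of all reads, and levels are given as counts per 1000000 of these (CPM). A level with ± is the mean and SD over both libraries (n = 2), and intervals are exact binomial (Clopper-Pearson) 95% intervals that cover counting error only. A count of 0 allows up to 3 counts, or 0.872 CPM in replicate 1 and 0.514 CPM in replicate 2. The cardiomyocyte miRNAs Mir208a, Mir208b and Mir499 were counted in both libraries, as the heart label requires, and their sums were 62341 and 45466 CPM in replicates 1 and 2. The libraries also differed in markers of other cell types, whose values stand with the comparison of the pools below.

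All 10 genes had at least 10 counts in both libraries, as did 327 of the 1973 genes. Together they had 28300 counts in replicate 1, which is 0.823% of the counts (0.813% to 0.832%), and 64206 counts in replicate 2, which is 1.10% (1.09% to 1.11%). On the CPM scale the sum was 9617 ± 1965, that is 8228 and 11007 CPM in replicates 1 and 2. The median level over the 10 genes was 426 CPM, where the median over the 327 detected genes was 146 CPM. Reads that match several places are in no gene count, so miRNAs encoded at several places can stand too low. The median over the detected genes and all ranks given below carry this limit.

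The counts were concentrated in the 4 of these genes that lie opposite Rtl1, and among these in Mir127 and Mir431. Mir433 (571 CPM) and Mir434 (760 CPM) were on average no higher than Mir337 (782 CPM), which lies between Meg3 and Rtl1. The 4 genes held 84.1% of the counts of the 10 genes in replicate 1 (83.7% to 84.5%) and 85.7% in replicate 2 (85.4% to 85.9%). The 5 genes between Meg3 and Rtl1 held 15.4% in replicate 1 (15.0% to 15.8%) and 13.7% in replicate 2 (13.4% to 13.9%), and Mir770 in Meg3 held 0.491% (0.413% to 0.580%) and 0.659% (0.598% to 0.724%). The order of these shares was the same in both pools, and for each of them the intervals of the pools do not overlap. Summed, the genes opposite Rtl1 exceeded Mir770 by 7.22 ± 0.28 on the log2 scale (7.42 in replicate 1 and 7.02 in replicate 2), and they exceeded the 5 genes in between by 2.55 ± 0.14. Ratios between different miRNAs are ratios of counts and need not be ratios of their amounts in the tissue.

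**Figure D1:**
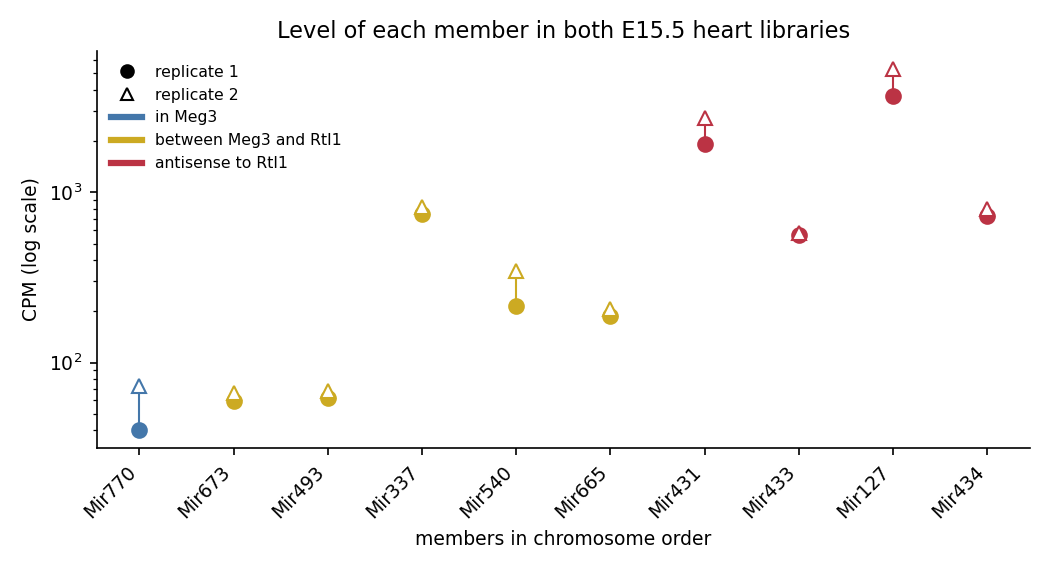
Level of each of the 10 genes in CPM (log scale) in replicate 1 (filled circles) and replicate 2 (open triangles), in chromosome order and coloured by place. Mir770, Mir673 and Mir493 sit below 100 CPM, and Mir431 and Mir127 stand above all others in both libraries.

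Mir127, a miRNA known for its maternal expression and its place opposite Rtl1, was the most abundant. It had 12721 counts or 3698 CPM in replicate 1 and 30999 counts or 5314 CPM in replicate 2, a mean of 4506 ± 1143 CPM and rank 31 of all 1973 genes. Its values did not overlap with those of any other of the 10. In the order of mean level over all genes it stood below Mir487b (5560 ± 356 CPM), itself a gene of the locus, and Mir151 (4852 ± 504 CPM), and above Mir149 (4465 ± 38.8 CPM) and Mir10a (4210 ± 1757 CPM). With the spread of Mir127 between the pools, its place among these 4 genes is not resolved.

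Mir431, known in the mouse for a role in skeletal muscle regeneration, came second with 6638 counts or 1930 CPM in replicate 1 and 16006 counts or 2744 CPM in replicate 2. Its mean of 2337 ± 576 CPM was 1.93 times below that of Mir127, and it held rank 50 of all genes. The ratio of the counts of Mir127 to those of Mir431 was 1.92 in replicate 1 and 1.94 in replicate 2, so that both genes were higher in replicate 2 by nearly the same factor. Mir127 and Mir431 together made up 68.4% of the counts of the 10 genes in replicate 1 (67.9% to 68.9%) and 73.2% in replicate 2 (72.9% to 73.6%).

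Mir433, known from rodent hearts for a part in fibrosis, lies between Mir431 and Mir127 on the chromosome, yet it was counted far less often than either. It had 565 and 578 CPM in replicates 1 and 2 (571 ± 9.32 CPM), values that lie close together. The ratio of Mir127 to Mir433 was 6.55 in replicate 1 and 9.19 in replicate 2, a wider gap between the pools than for the ratio of Mir127 to Mir431. Mir434, the last of the 10 along the chromosome, had 727 and 793 CPM (760 ± 46.4 CPM). Its ratio to Mir433 was 1.29 in replicate 1 and 1.37 in replicate 2.

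Among the genes between Meg3 and Rtl1, Mir337 led with 743 CPM in replicate 1 and 820 CPM in replicate 2 (782 ± 54.4 CPM), a level whose range overlapped with that of Mir434. Mir540, whose hairpin starts 0.194 kb after the end of Mir337, had 216 and 345 CPM (280 ± 91.2 CPM). Mir665, the next gene, had 186 and 206 CPM (196 ± 13.7 CPM). Although these 3 hairpins are packed together, the counts of Mir337 exceeded those of Mir665 by 3.99 times in both replicate 1 and replicate 2, while the ratio of Mir337 to Mir540 was 3.45 in replicate 1 and 2.38 in replicate 2.

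The 3 genes nearest to the start of Meg3 were the least abundant. Mir493 had 61.9 and 68.2 CPM in replicates 1 and 2, Mir673 had 59.6 and 66.5 CPM, and Mir770 had 40.4 and 72.5 CPM. The ranges of these 3 genes overlap, so their order is not resolved, and together they gave 1.97% and 1.88% of the counts of the 10 genes in replicates 1 and 2. Mir770 rested on 139 and 423 counts and ranked 215 of all genes, next to Mir345 (58.1 ± 3.81 CPM) and Mir412 (56.7 ± 7.82 CPM) above it and Mir138-1 (51.8 ± 9.14 CPM) and Mir3074-1 (51.3 ± 3.85 CPM) below it. Over all 10 genes, ranges overlapped between neighbours in the order of level only for Mir337 with Mir434, for Mir493 with Mir673 and for Mir673 with Mir770.

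Hardly any reads came from the strand opposite the hairpins. The counts on the opposite strand were 0 in both libraries for 9 of the 10 genes. Mir337 had 2 such counts in replicate 1 and 9 in replicate 2, beside 2557 and 4785 on its own strand. Mir3544, a miRNA annotated on the minus strand within the bounds of the Mir337 hairpin, has no row of its own in the counts. The 4 genes opposite Rtl1 thus had 0 counts in the direction of Rtl1 transcription, which allows up to 3 counts per gene and library.

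The rest of the locus was described by all other plus-strand miRNA genes between Dlk1 and Dio3 that have a row in the deposited counts, which are 43 genes. Of these 32 had at least 10 counts in both libraries and 5 had 0 counts in both. They summed to 23747 and 29540 CPM in replicates 1 and 2, so the 10 proximal genes lay below them at a log2 ratio of -1.48 ± 0.07 (-1.53 and -1.42), equal to 34.6% and 37.3% of their counts. The median level was 426 CPM over the 10 proximal genes and 75.6 CPM over the 43 others, which include the undetected ones. The leading genes among the others were Mir411 (6141 ± 1295 CPM), Mir487b, Mir369 (3138 ± 322 CPM) and Mir379 (2646 ± 492 CPM), all of the distal group. Mir409 has no row of its own and is outside this order. The minus-strand row that overlaps it had 7792 and 19360 opposite-strand counts in replicates 1 and 2. Mir379 had 7903 and 17463 counts on its own strand. Whether the former are reads of Mir409 was not tested. The range of Mir127 overlapped with those of Mir411 and Mir487b, and the range of Mir431 overlapped with that of Mir379.

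**Figure D2:**
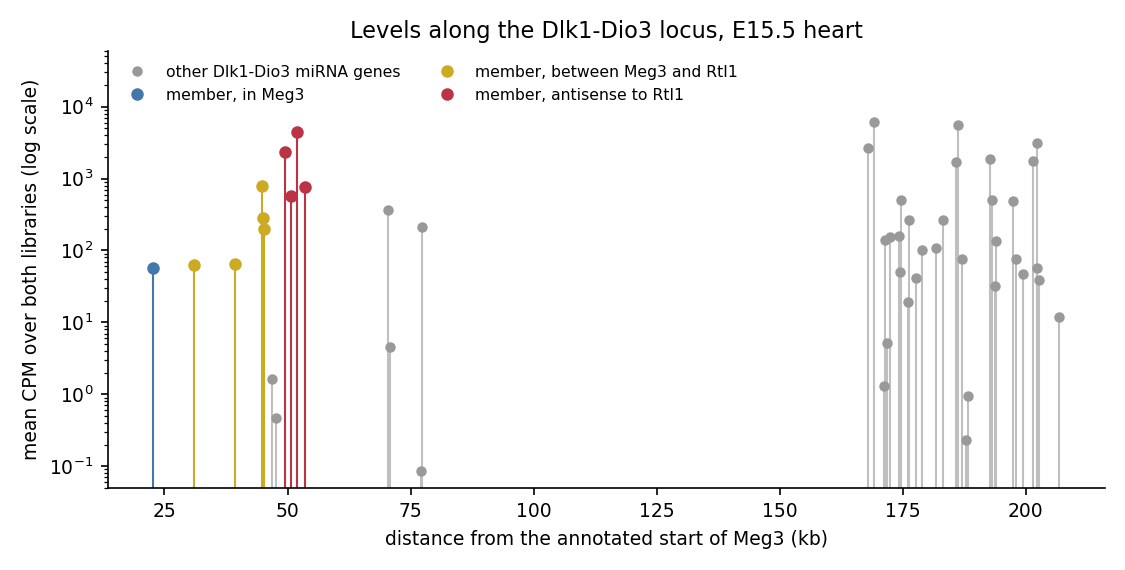
Mean level over both libraries (CPM, log scale) of the miRNA genes on the plus strand of the Dlk1-Dio3 locus against the distance from the annotated start of Meg3 in kb. Genes at 0 counts or with no row of their own are left out. Mir127 and Mir431 stand highest of the 10 genes, Mir337 (782 CPM) lies beside Mir434 (760 CPM) and above Mir433 (571 CPM), and the distal group farther along holds levels from below 1 CPM to 6141 CPM for Mir411.

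Near the 10 genes some neighbours were hardly counted. Mir3070a, between Mir665 and Mir431, had 3 and 14 counts in replicates 1 and 2, and Mir3070b had 2 and 2. Mir432, which follows Mir434 and also lies opposite the coding exon of Rtl1, had 0 counts in both. Mir136 is another plus-strand miRNA gene opposite that exon and has no row of its own. The row at the same place carries the gene ID that M21 gives to Mir3071 on the minus strand, under an older ID version, and it had 533 and 898 counts on its own strand. Whether these reads are of Mir136 or Mir3071 was not tested.

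The pools were also compared with each other by an exact conditional binomial test per gene after TMM scaling (a trimmed mean of log ratios sets the scale between libraries), with Benjamini-Hochberg adjustment over all 413 genes with at least 10 summed counts. This test sets 2 libraries against counting noise and compares no conditions. Of the 413 genes 46.5% were called at an adjusted p below 0.05, 21.8% as higher in replicate 1 and 24.7% as higher in replicate 2. Of the 10 proximal genes 5 were called, 1 higher in replicate 1 and 4 higher in replicate 2, beside the 46.5% over all genes tested. All 10 have over 300 summed counts, and of the 243 genes with at least 300 summed counts 70.8% were called. The median log2 ratio of replicate 1 to replicate 2 was 0.02 over the 10 proximal genes, against -0.04 over all genes tested. By total counts without TMM, 6 of the 10 were called, all as higher in replicate 2, beside 49.2% of all genes tested. This scaling moves the median of all genes to -0.21. In that scaling 23.6% of all calls were higher in replicate 1, against 46.9% with TMM.

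The called differences were small beside the range of levels. Mir770 differed most, at a log2 ratio of -0.67 (95% counting interval -0.96 to -0.39, adjusted p = 3.48e-06 by the exact binomial test). Mir540 followed with -0.50 (-0.63 to -0.38, adjusted p = 4.96e-16). Mir127, at -0.35, and Mir431, at -0.33, had intervals that overlapped (-0.38 to -0.32 and -0.38 to -0.29). All 4 were higher in replicate 2 and remained so by total counts and by DESeq2 size factors.

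Mir433 was called in the other direction, at 0.14 (0.06 to 0.22, adjusted p = 0.00211 by the exact binomial test), but by total counts its ratio was -0.033 with an adjusted p of 0.551. Mir434 (0.05), Mir337 (0.03), Mir665 (0.03), Mir493 (0.03) and Mir673 (0.02) were not called, and their positive ratios all turned negative by total counts. The absolute log2 ratio had a median of 0.09 over the 10 genes, of 0.22 over the 243 genes with at least 300 summed counts and of 0.30 over all 413. Of the 43 other genes of the locus 34 were tested, with a median log2 ratio of -0.20. Of these 34, 50% were called, beside 46.5% over all genes tested. By direction, 15 were called as higher in replicate 2 and 2 as higher in replicate 1. Over all genes tested these shares were 24.7% and 21.8%.

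**Figure D3:**
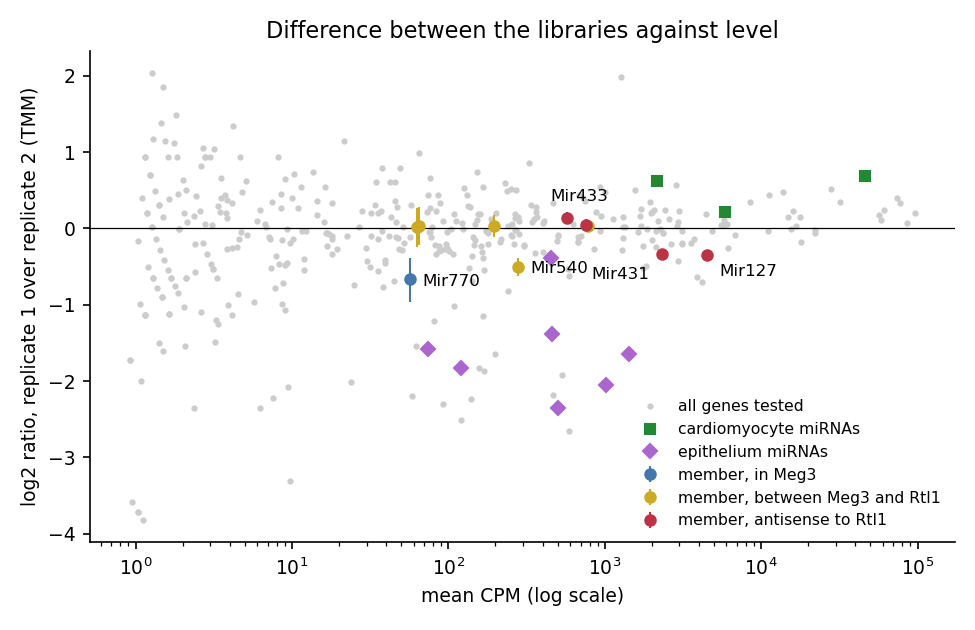
Log2 ratio of replicate 1 to replicate 2 after TMM scaling against mean CPM (log scale) for all genes tested (grey), with the 10 genes coloured by place and bars for their 95% counting interval. Squares are cardiomyocyte miRNAs, all above 0, and diamonds are epithelium miRNAs, all below 0, while Mir770, Mir540, Mir431 and Mir127 lie between -0.67 and -0.33.

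Markers of cell types differed between the same libraries. The 3 cardiomyocyte miRNAs were higher in replicate 1, with a log2 ratio of 0.63 for their sum. The 7 epithelium miRNAs, the Mir200 family with Mir203 and Mir205, summed to 1821 and 6297 CPM in replicates 1 and 2. Of the neural list 8 of 9 genes have a row and 4 of these 8 had counts, which summed to 158 and 573 CPM in replicates 1 and 2. Its defining genes Mir124a-1, Mir124a-2 and Mir124a-3 had 0 counts in both, but they encode the same mature miRNA, whose reads match several places and enter no gene count, so their 0 says nothing of its level. Mir122 of the liver had 87.2 and 309 CPM. The erythroid list summed to 2457 and 1095 CPM in replicates 1 and 2. Within it Mir451a had 1975 and 564 CPM, Mir144 had 401 and 422 CPM, and Mir486 had 80.8 and 110 CPM. The leukocyte list summed to 352 and 491 CPM, mostly from Mir223, and the skeletal muscle list to 75.6 and 104 CPM, mostly from Mir206. By TMM the log2 ratios were -0.32 for Mir223, -0.10 for Mir150, -0.30 for Mir206 and 0.16 for Mir133b. Mir150 and Mir133b were not called, and Mir133b rested on 8 and 14 counts. The smooth muscle list summed to 83564 and 89291 CPM, and Mir126a of endothelium had 79217 and 67775 CPM. After TMM scaling both smooth muscle miRNAs were higher in replicate 1, with log2 ratios of 0.07 for Mir143 and 0.48 for Mir145a. The part of these differences in the higher counts of Mir127, Mir431, Mir540 and Mir770 in replicate 2 was not tested.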

How the data were processed

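The authors deposited raw read counts per miRNA gene, 1 file per library, in 3 unlabelled columns. By their values the first is the sum of the other columns, and the second, far above the third, was taken as counts on the gene's own strand. Alignment to mm10 and the GENCODE M4 annotation are named in the deposited text files. The software for alignment, trimming and counting is not given in the sources used here. Reads that match several places (33.0% and 30.1% of reads in replicates 1 and 2), unmapped reads (13.1% and 15.1%) and reads on the strand of no miRNA gene (5.11% and 5.07%) are in no gene count and stayed out of totals.

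Here, counts on the strand of the gene were turned into CPM, with 1 count worth 0.291 CPM in replicate 1 and 0.171 CPM in replicate 2. Symbols, positions and overlaps come from GENCODE M21 by gene ID without version (1894 of 1973 IDs matched), mature sequences from RefSeq on GRCm38.p6. The test between libraries across all genes used TMM factors (0.942 and 1.06) from edgeR 4.0.16 under R 4.3.3, and alternatives used total counts and DESeq2 1.42.0 size factors. It was run on simulated data with planted changes in some genes and counting noise as the only spread. Such data cannot show how the test behaves under spread between pools. Other steps used Python 3.11.15 with scipy 1.17.1. The text names all 10 genes, the genes next in level to the highest and lowest of them, and the 4 leading other genes of the locus. Genes and lists were chosen with earlier results of these data known. Mir3070a, Mir3070b, Mir432, Mir136, Mir3071, Mir3544 and Mir409 were named after their values were seen. The leukocyte marker Mir142 and the neural marker Mir9-1 were not analysed here.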

Additional observations from a re-analysis of the deposited data

Results flagged for a closer look

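Mir337 had 9 counts on the strand opposite its hairpin in replicate 2, above the 3 counts that a count of 0 allows, and 2 in replicate 1. The column of opposite-strand counts is outside the levels reported. In the same column, 4 rows of minus-strand genes that overlap plus-strand genes of the distal part of the locus (Mir299a, Mir380, Mir376a and Mir409, which have no rows of their own) summed to 16083 counts in replicate 1 and 36096 in replicate 2. Whether all of these are reads of the plus-strand genes was not tested.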

How the results depend on the processing

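The sum of the 10 genes was 4741 CPM when all reads formed the CPM denominator, and 24788 CPM with the 10 most abundant genes taken out of the denominator, where only the denominator differs; with a single library left in, it ranged from 8228 to 11007 CPM. Leaving out either library kept the log2 ratio of the genes opposite Rtl1 to Mir770 between 7.02 and 7.42, and that of the 10 genes to the others of the locus between -1.53 and -1.42. That last ratio was -1.74 when opposite-strand counts of locus genes with no row of their own were added to the others, an alternative chosen after seeing the data. All 10 genes were detected at minimums of 1, 10 and 100 counts and by counts on either strand. The number called between the pools was 5 or 6 under all alternatives run, which changed the scaling, the filter on low counts and the strand. Over all genes tested, the share called was 26.2% with no filter on low counts and 65.7% with at least 100 summed counts. It was 49.2% by total counts, 45.5% by DESeq2 size factors and 47.3% by counts on either strand. By total counts the log2 ratio of replicate 1 to replicate 2 changed sign for Mir673 (-0.16), Mir493 (-0.14), Mir337 (-0.14), Mir665 (-0.14), Mir434 (-0.12) and Mir433 (-0.033), as the scaling moves all genes alike, and Mir337 and Mir434 were then called. With DESeq2 size factors 0 signs changed, and Mir434 was called at 0.09. No paired analysis was possible because the design holds 1 group. With 2 pools an SD is itself poorly known, and arms of a hairpin were not counted apart.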
